A study of Mus musculus with 32 samples.

Results

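A set of 10 genes grouped as genes of Sertoli cells, the supporting cells of the testis cords, was followed through 32 arrays of sorted fetal mouse germ cells. The members are Amh, Inha, Gja1, Prss35, Sox9, Clu, Cldn11, Dhh, Defb36 and Nr0b1. The name of the set is not a result of these arrays. Nr0b1 was higher in females, and Defb36, Nr0b1 and Cldn11 varied little with the other members on male arrays. They were chosen by name with their measured signals on these same arrays, in every group, already known, so their levels and differences are given as a description and carry no test. Each has 1 probe set whose annotation names a single gene, and the 10 genes stand among 19938 genes with such an entry. Levels are log2 signals after RMA, the array normalization the authors used, the base-2 logarithm of the signal.

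The germ cells were EGFP+ cells sorted at 17.5 dpc from fetal gonads that carry the OG2 transgene, in which the Oct4 promoter drives GFP. The germ cell generation G1R came from FVBxOG2 G1 fetuses of G0 dams that were given BPA at 0.2, DEHP at 750 or VZ (vinclozolin) at 100 mg/kg/day from 12.5 dpc, or oil. G2R cells came from OG2xFVB fetuses of the next generation, which descend from exposed or oil-treated G0 dams and had no exposure of their own. The 11 groups were the G2R males of the DEHP, VZ and oil lines, G1R males after BPA, DEHP, VZ or oil, and G1R females after BPA, DEHP, VZ or oil. Each group had 3 arrays except G1R DEHP females, which had 2. The labels do not say whether arrays of a group came from separate litters, so the p-values below measure only the spread between these arrays.

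Sertoli cells surround the germ cells in the cords of the fetal testis and send signals to the rest of the gonad. SOX9 directs the supporting cells to the Sertoli fate, and anti-Müllerian hormone then causes regression of the Müllerian ducts. Desert hedgehog acts on neighbouring Leydig and peritubular cells, inhibin opposes activin, and connexin 43 and claudin 11 build junctions. Clusterin is secreted in quantity by Sertoli cells, and germ cells are marked by other genes, such as Ddx4 and Dazl. In sorted material a low signal of such genes can stand for fewer cells of that type or for less RNA per cell, and a bulk array cannot tell these apart.

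Start-site sequences were available from RefSeq (GRCm38.p6) for 7 of the 10 genes, all but Amh, Sox9 and Clu, each 300 bases long. The windows of 3 genes are shown because they come from genes with opposite behaviour on the male arrays, Inha and Gja1 from the genes that differed most between arrays of a group and Defb36 from those that differed least. Capitals mark a match to AGGTCA, the core element of steroidogenic factor 1 and other nuclear receptors, or to AGATAA, which the GATA family binds, searched on both strands. The Inha window lies at chr1:75507359-75507658 on the plus strand, the Gja1 window at chr10:56377050-56377349 on the plus strand and the Defb36 window at chr2:152604077-152604376 on the plus strand.
Inha: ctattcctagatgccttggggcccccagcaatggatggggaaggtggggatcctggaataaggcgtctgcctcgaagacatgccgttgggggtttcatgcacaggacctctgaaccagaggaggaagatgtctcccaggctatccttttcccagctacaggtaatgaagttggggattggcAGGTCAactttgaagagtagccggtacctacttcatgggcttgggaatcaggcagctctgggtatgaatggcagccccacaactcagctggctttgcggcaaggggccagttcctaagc
Gja1: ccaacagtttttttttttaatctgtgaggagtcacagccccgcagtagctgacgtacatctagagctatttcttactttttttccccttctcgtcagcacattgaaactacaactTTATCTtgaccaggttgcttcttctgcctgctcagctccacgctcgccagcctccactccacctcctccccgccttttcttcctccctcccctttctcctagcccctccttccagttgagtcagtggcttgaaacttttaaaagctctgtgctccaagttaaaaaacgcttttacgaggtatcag
Defb36: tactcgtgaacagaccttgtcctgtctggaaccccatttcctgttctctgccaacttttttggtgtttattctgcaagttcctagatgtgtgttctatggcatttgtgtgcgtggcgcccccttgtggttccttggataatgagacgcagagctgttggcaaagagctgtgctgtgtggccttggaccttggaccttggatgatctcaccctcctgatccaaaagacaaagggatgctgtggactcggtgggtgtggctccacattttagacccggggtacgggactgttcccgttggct
AGGTCA or its reverse complement TGACCT stood in the windows of Inha and Nr0b1, against 16.3% of 32851 RefSeq windows of this length. AGATAA or TTATCT stood in the Gja1 window alone among the 7, against 11.2% of all windows, and AACAAT or ATTGTT, the core bound by SOX proteins, stood in none of the 7, against 10.7% of all windows. The windows of Defb36, Cldn11, Prss35 and Dhh held none of the 3 motifs. A match describes the letters only.

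Before the members, the labelled cell type was checked. Ddx4, a germ cell RNA helicase, lay between 11.52 and 11.86 on all 32 arrays, and Dazl, a germ cell RNA-binding protein, between 12.3 and 12.9. Pou5f1, the gene whose promoter drives the sorted transgene, lay between 10.03 and 11.33 on the male arrays and between 7.12 and 8.76 on the female arrays. Signals at or under 6.89, the 95th percentile of 1035 olfactory receptor probe sets, are called dim here. By that mark Inha, Sox9 and Clu were above the dim range on all 21 male and all 11 female arrays. Amh and Prss35 were above it on 16 and 18 male arrays and on 0 female arrays, and Dhh was above it on only 4 male arrays and 0 female arrays. Gja1 was above it on 19 male and 4 female arrays, Cldn11 on 21 and 9, Defb36 on 21 and 7, and Nr0b1 on 7 male and all 11 female arrays.

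**Figure D1:**
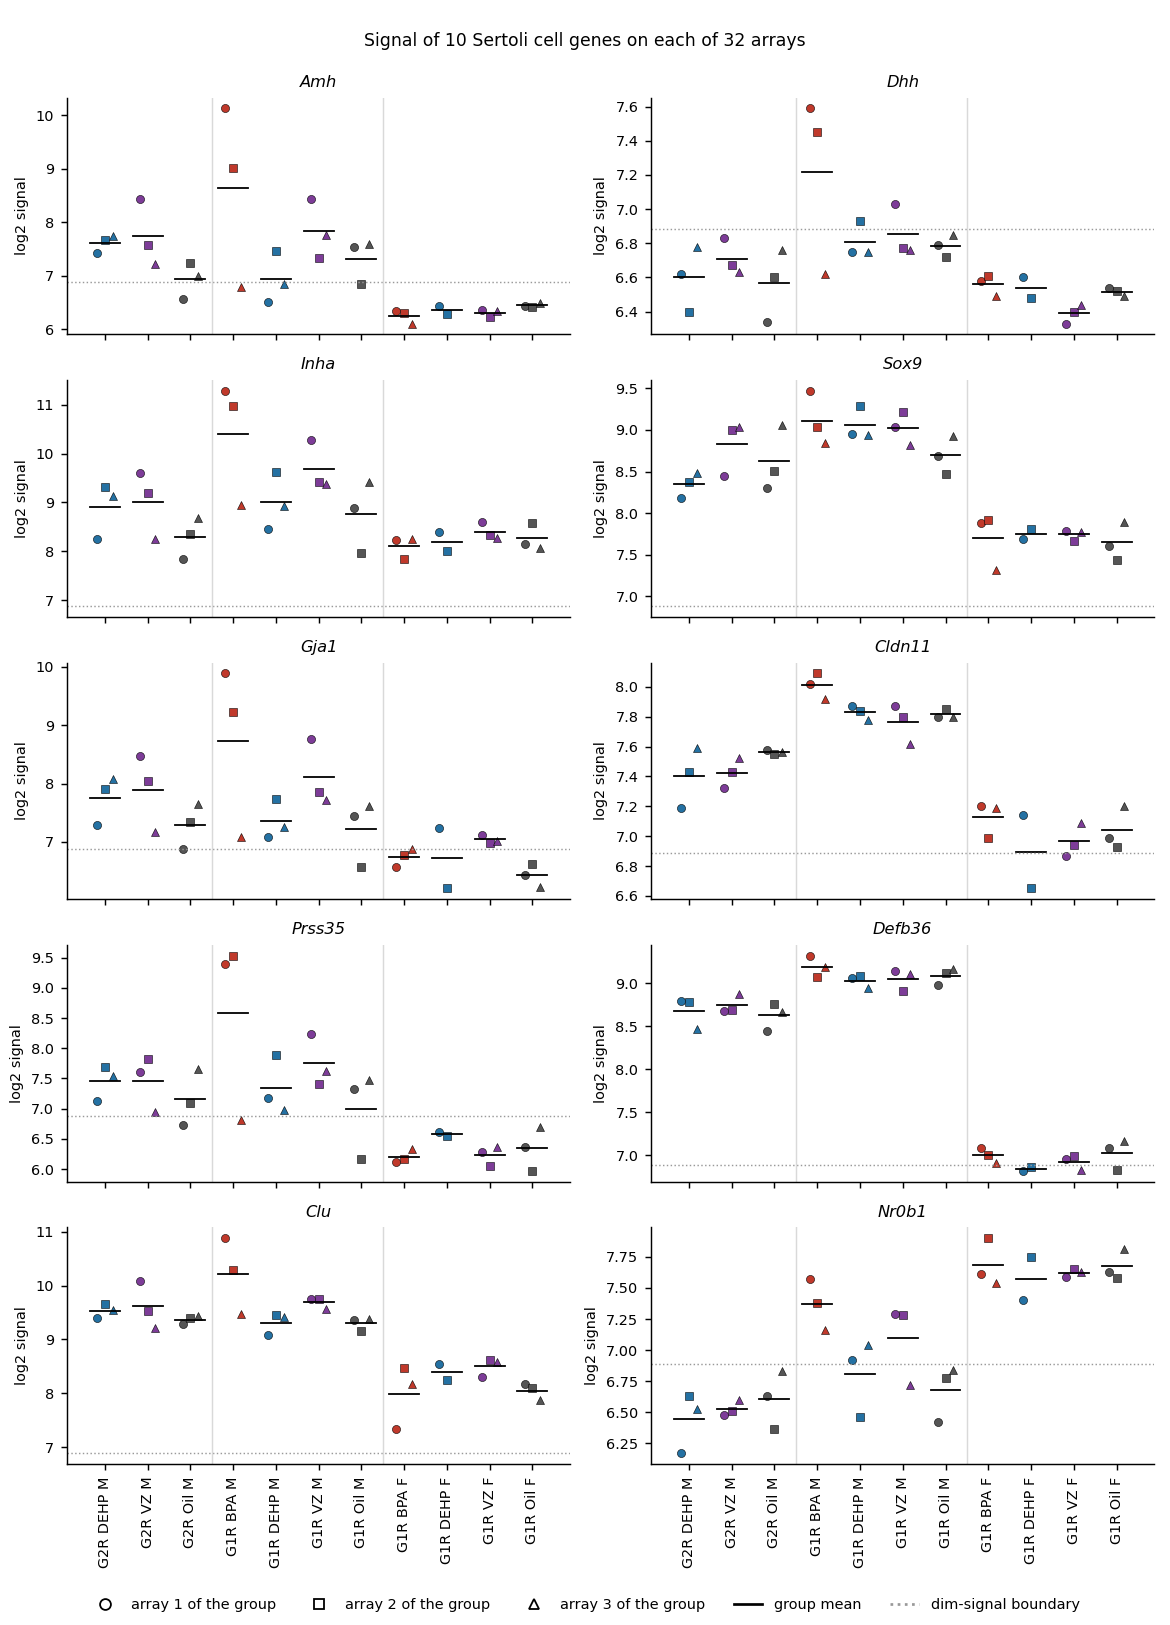
Log2 signal of each of the 10 genes (vertical axis) on every array, by group (horizontal axis); symbols give the array number, bars the group means and the dotted line the dim boundary at 6.89. Amh, Inha, Gja1, Prss35, Clu and Dhh spread widely among male arrays with BPA males 1 and 2 on top, while Cldn11 and Defb36 form narrow bands.

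Among the secreted hormones, Amh (probe set 10364903) encodes anti-Müllerian hormone. Its signal was 10.13, 9.01 and 6.80 in G1R BPA males, 6.52, 7.47 and 6.85 in DEHP males and 8.44, 7.33 and 7.77 in VZ males, against 7.54, 6.84 and 7.59 in oil males. G2R males had 7.43, 7.67 and 7.75 in the DEHP line and 8.43, 7.57 and 7.22 in the VZ line, against 6.57, 7.25 and 7.0 in the oil line. The third BPA array lay below every oil male, whereas BPA males 1 and 2 were the highest of all 21 male arrays. All 11 female arrays fell between 6.11 and 6.5, just under the lowest male array at 6.52.

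Inha (10347669) encodes the alpha subunit of inhibin. BPA males had 11.28, 10.96 and 8.94, DEHP males 8.46, 9.63 and 8.92 and VZ males 10.27, 9.42 and 9.37, against 8.89, 7.97 and 9.42 in oil males. In G2R the DEHP line had 8.26, 9.31 and 9.13 and the VZ line 9.61, 9.19 and 8.25, against 7.85, 8.36 and 8.69 in the oil line. Female arrays lay between 7.84 and 8.61 and overlapped the lower male arrays. The order of arrays within the male groups was close to that of Amh, with BPA males 1 and 2 and VZ male 1 highest.

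Dhh (10432372), the hedgehog ligand made by Sertoli cells, was dim on most arrays. It reached 7.59 and 7.45 in BPA males 1 and 2, while BPA male 3 was at 6.62, against 6.79, 6.72 and 6.85 in oil males. Its pooled SD within male groups was 0.24, and 0.15 without the BPA group. Only the first 2 BPA arrays, VZ male 1 at 7.03 and DEHP male 2 at 6.93 exceeded the dim boundary.

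The junction genes parted ways. Gja1 (10363173), which encodes connexin 43, the main gap junction protein between Sertoli cells, was at 9.89, 9.22 and 7.08 in BPA males, 7.09, 7.73 and 7.25 in DEHP males and 8.76, 7.86 and 7.71 in VZ males, against 7.45, 6.57 and 7.62 in oil males. Female arrays lay between 6.20 and 7.24. Cldn11 (10491313), the tight junction claudin of the cords, was at 8.02, 8.09 and 7.92 in BPA males, 7.87, 7.84 and 7.78 in DEHP males and 7.87, 7.80 and 7.62 in VZ males, against 7.80, 7.85 and 7.80 in oil males. Over all 21 male arrays Cldn11 lay between 7.19 and 8.09, while Gja1 lay between 6.57 and 9.89. The pooled SD of Cldn11 within male groups was 0.11, against 0.73 for Gja1.

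Sox9 (10382328), the transcription factor of the Sertoli fate, lay between 8.18 and 9.47 on male arrays and between 7.32 and 7.92 on female arrays, with no overlap between the sexes. BPA males were at 9.47, 9.03 and 8.84, against 8.69, 8.47 and 8.93 in oil males. Nr0b1 (10600707) encodes DAX1, a nuclear receptor of the gonad and adrenal that lacks a classical DNA-binding domain, and its start-site window lies on chromosome X. It ran against the other members in sex, with 7.40 to 7.90 on female arrays and 6.17 to 7.57 on male arrays. BPA males had 7.57, 7.38 and 7.16, all above the oil males at 6.42, 6.78 and 6.84.

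Clu (10416057), the secreted chaperone clusterin, was at 10.88, 10.29 and 9.47 in BPA males, against 9.37, 9.15 and 9.38 in oil males. Female arrays lay between 7.34 and 8.61, below every male array. Prss35 (10587616), a protease-like secreted protein, was at 9.39, 9.53 and 6.82 in BPA males, 7.17, 7.88 and 6.97 in DEHP males and 8.24, 7.41 and 7.62 in VZ males, against 7.32, 6.17 and 7.48 in oil males. As for Amh, BPA male 3 stood with the oil males and the first 2 BPA arrays far above them.

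Defb36 (10477134), a member of the beta-defensin family, varied little between arrays of a male group. It was at 9.32, 9.07 and 9.19 in BPA males, 9.06, 9.09 and 8.94 in DEHP males and 9.14, 8.91 and 9.11 in VZ males, against 8.98, 9.12 and 9.17 in oil males. G2R males had 8.80, 8.78 and 8.47 in the DEHP line and 8.68, 8.69 and 8.88 in the VZ line, against 8.45, 8.76 and 8.67 in the oil line. All female arrays were between 6.82 and 7.17, so the gap from the highest female to the lowest male array was 1.28, the widest among the members. BPA male 1 was the highest male array here too, by a small margin over BPA male 3 and oil male 3.

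The members differed in how far arrays of 1 group lay apart. The pooled SD within male groups was 0.77 for Amh and 0.73 for each of Inha, Gja1 and Prss35, then 0.34 for Clu, 0.27 for Sox9, 0.24 for Dhh and Nr0b1, 0.13 for Defb36 and 0.11 for Cldn11. Over all probe sets the median was 0.15 and the 95th percentile 0.4. Without the BPA group the SD was 0.46 for Amh, 0.59 for Inha, 0.50 for Gja1 and 0.49 for Prss35, still above that percentile. On female arrays the same 4 genes had pooled SDs of 0.09, 0.24, 0.31 and 0.22, against a median of 0.15 over all probe sets.

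BPA male 1 was the highest of the 21 male arrays for 8 of the 10 genes and BPA male 2 for the other 2, Prss35 and Cldn11. BPA male 1 was among the top 2 for all 10, BPA male 2 for 8 and BPA male 3 for 1, Defb36. After subtraction of each group's mean, Gja1 correlated with the mean of the other 9 members at r = 0.98 over the 21 male arrays, Inha at 0.94, Prss35 at 0.92, Amh at 0.91, Dhh at 0.88 and Clu at 0.86. Sox9 had r = 0.50, Cldn11 0.28, Nr0b1 0.26 and Defb36 0.06. Without the BPA arrays, over 18 arrays, r was 0.96 for Gja1 and Inha, 0.87 for Prss35, 0.78 for Amh, 0.66 for Dhh and 0.65 for Clu, and -0.02 for Defb36. These correlations are a description, and no test goes with them.

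**Figure D2:**
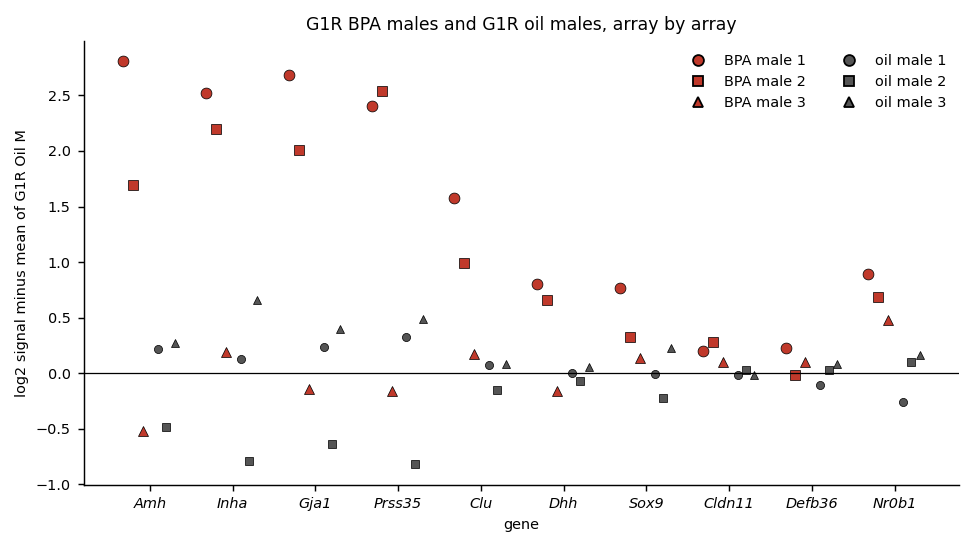
Log2 signal minus the mean of the G1R oil males (vertical axis) for each member (horizontal axis), for the 3 BPA male arrays in red and the 3 oil male arrays in grey. BPA males 1 and 2 lie 1.69 to 2.81 above the oil mean for Amh, Inha, Gja1 and Prss35, whereas BPA male 3 lies between -0.52 and 0.19 for these genes.

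The sex comparison asked how far these genes separate male from female germ cell samples. In limma, fitted over all 35556 probe sets with Benjamini-Hochberg adjustment, 25.6% of probe sets were higher and 28.7% lower in oil males than in oil females. Beside that share, 4 of the 10 members lay past the same threshold in the higher direction (Defb36, Clu, Sox9 and Cldn11) and 1 in the lower (Nr0b1). With only the oil arrays in the model 7 members were past it in the higher direction. The share of all probe sets was not computed for that fit, so this count has no background beside it. Because the members were chosen with these values known, their counts here and below describe where they fall and are no test. Oil males minus oil females differed by 2.06 ± 0.11 (model SE) in Defb36, 1.25 ± 0.26 in Clu, 1.05 ± 0.20 in Sox9, 0.78 ± 0.11 in Cldn11 and -0.99 ± 0.17 in Nr0b1. Amh differed by 0.87 ± 0.48, Gja1 by 0.79 ± 0.47, Prss35 by 0.65 ± 0.46, Inha by 0.49 ± 0.46 and Dhh by 0.27 ± 0.16. The members' median difference was 0.78, and that of all probe sets -0.05.

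After BPA the males exceeded the females by 2.38 ± 0.48 in Amh, 2.28 ± 0.46 in Inha, 1.99 ± 0.47 in Gja1 and 2.38 ± 0.46 in Prss35, and 9 of the 10 members (all but Nr0b1) were past the threshold upward and 0 downward, beside 25.1% and 30.6% of all probe sets. The model shares 1 spread per probe set over all groups. The BPA male SD was 1.69, 1.27, 1.47 and 1.52 in these 4 genes, so the model SE understates the spread of that group. With BPA males 1 and 2 both left out, a choice made after seeing the data, only BPA male 3 represented the group and its spread was assumed to be that of the other groups. In that fit 4 members were past the threshold upward, beside 20.2% of all probe sets, and the differences were 0.54 in Amh, 0.83 in Inha, 0.34 in Gja1 and 0.62 in Prss35. After VZ, 8 members were past the threshold upward (all but Gja1 and Nr0b1) and Nr0b1 downward, beside 24.5% and 31% of all probe sets, with 1.54 ± 0.48 in Amh, 1.52 ± 0.46 in Prss35 and 1.28 ± 0.46 in Inha. After DEHP, 4 members were past it upward (Defb36, Sox9, Cldn11 and Clu) and Nr0b1 downward, beside 23.6% and 28.5%. The Defb36 difference was 2.19 ± 0.11 after BPA, 2.19 ± 0.12 after DEHP and 2.13 ± 0.11 after VZ.

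**Figure D3:**
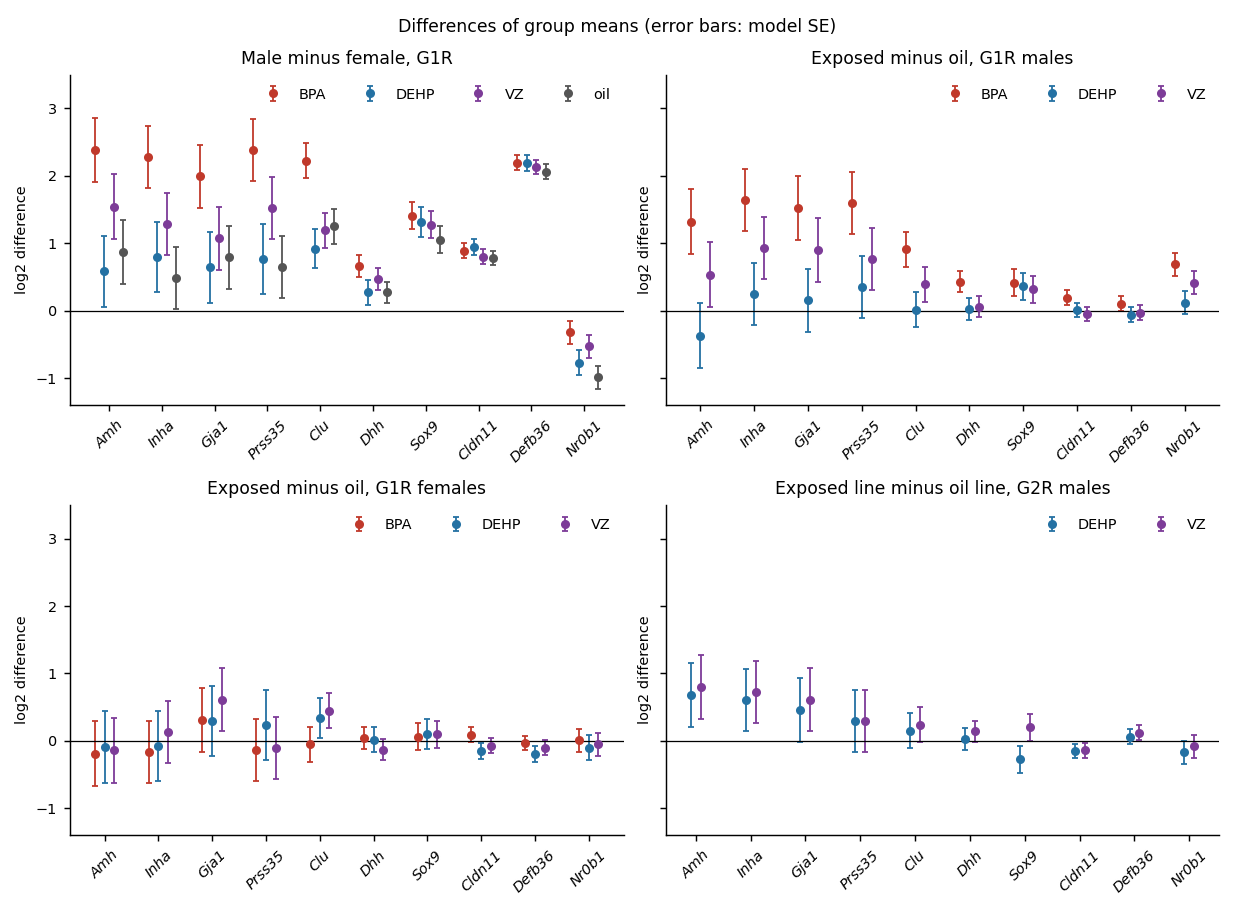
Log2 difference between group means (vertical axis) for each member (horizontal axis), with bars of 1 model SE: male minus female in G1R, exposed minus oil in G1R males and G1R females, and exposed line minus oil line in G2R males. Defb36, Sox9 and Cldn11 keep nearly the same sex difference in every treatment, while Amh, Inha, Gja1 and Prss35 span 0.49 to 2.38.

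Other Sertoli genes were tested as a second list, which holds none of the members but was also drawn up with earlier results of these data known, so it is not independent evidence. Of 24 genes, 22 had a single-gene probe set. In oil males against oil females 9 of 22 were called higher and 2 lower by limma, beside 25.6% and 28.7% of all probe sets, with a median difference of 0.40 against -0.05. Krt18, a keratin of supporting and other epithelial cells, averaged 10.39 ± 0.05 in oil males and 7.0 ± 0.26 in oil females (SD, n = 3 each), a difference of 3.39 ± 0.15 with an adjusted p of 7.87e-16 in limma. Trf, transferrin, which carries iron, was higher by 1.45 ± 0.11 (adjusted p = 1.67e-11), Vnn1, a pantetheinase, by 0.94 ± 0.23 (0.00104), Ptgds, a prostaglandin D synthase, by 0.81 ± 0.23 (0.00376) and Mro by 0.75 ± 0.23 (0.00637). Fgf9, a growth factor of the testis pathway, was lower in oil males by 0.74 on the log2 scale (adjusted p = 1.9e-05).

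After BPA the same list had 20 of 22 called higher and 1, Fgf9, lower, beside 25.1% and 30.6% of all probe sets, with a median difference of 0.99. In BPA males against BPA females the largest were Krt18 at 3.55 ± 0.15, Aldh1a1, a retinaldehyde dehydrogenase, at 1.80 ± 0.49, Cst9 at 1.74 ± 0.44, Vnn1 at 1.65 ± 0.23, Ptgds at 1.63 ± 0.23 and Trf at 1.36 ± 0.11. With BPA males 1 and 2 left out, which leaves 1 array in the BPA male group, 6 of 22 were called higher, beside 20.2% of all probe sets. DEHP males had 6 of 22 called higher than DEHP females and 2 lower, beside 23.6% and 28.5% of all probe sets. VZ males had 10 called higher than VZ females and 2 lower, beside 24.5% and 31%. Krt18 differed by 3.03 ± 0.17 after DEHP and by 3.47 ± 0.15 after VZ, and Fgf9 by -0.92 ± 0.14 and -1.09 ± 0.13. Whether the counts differ between treatments rests on the exposure-by-sex term, which called 0 probe sets in any of the 3 treatments (lowest adjusted p over the list 0.969 for BPA, 0.63 for DEHP and 0.797 for VZ, limma).

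The exposure comparison asked whether an agent given to the dam changed these genes in the fetal germ cell samples. In BPA males minus oil males Inha differed by 1.64 ± 0.46, Prss35 by 1.59 ± 0.46, Gja1 by 1.52 ± 0.47, Amh by 1.32 ± 0.48, Clu by 0.91 ± 0.26, Nr0b1 by 0.69 ± 0.17, Dhh by 0.43 ± 0.16 and Sox9 by 0.41 ± 0.20, while Cldn11 differed by 0.19 ± 0.11 and Defb36 by 0.10 ± 0.11. None of the 10 was past the threshold, and limma called 0% of all probe sets in this comparison. The BPA group SD was 1.69 in Amh, 1.27 in Inha, 1.47 in Gja1 and 1.52 in Prss35, against 0.42, 0.73, 0.56 and 0.71 in oil males. With BPA males 1 and 2 both left out the differences were -0.52 in Amh, 0.19 in Inha, -0.14 in Gja1, -0.16 in Prss35, -0.16 in Dhh and 0.17 in Clu. They were 0.48 in Nr0b1, 0.14 in Sox9 and 0.10 in each of Cldn11 and Defb36. BPA male 3 lay above every oil male in 4 of the 10 members (Clu, Cldn11, Defb36 and Nr0b1), beside 20.9% of all probe sets. It lay below every oil male in 2 (Amh and Dhh), beside 24.1%.

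The other Sertoli genes were mostly higher as well. Their median difference was 0.44, and 20 of 22 were positive. With BPA males 1 and 2 both left out, which leaves 1 array in the BPA male group, the median was -0.04. In the fit of all arrays Aldh1a1 at 1.42 ± 0.49, Cst9 at 1.31 ± 0.44, Hsd17b1 at 0.88 ± 0.26 and Aard at 0.87 ± 0.24 were the largest, named after their values were seen. Limma called 0 of 22 at an adjusted p under 0.05 (lowest 0.221, Erbb4), and 16 of 22 had an unadjusted p under 0.05, against 6.96% of all probe sets. The unmoderated contrast called 0 as well. When BPA male 3 alone was left out, 14 of the 22 and 7 of the 10 members were called, all higher, beside 1.09% of all probe sets. The calls were not confined to Sertoli genes. In that fit 7 of 13 peritubular and interstitial probe sets, a list described below, were also higher, with Dcn at 2.30 ± 0.45 and Pdgfra at 1.45 ± 0.20. The Leydig, endothelial, blood, granulosa and germ cell lists had 0 calls, with a Leydig median difference of 1.03. Leaving out BPA male 1 or BPA male 2 gave 0 calls over all probe sets.

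DEHP males differed from oil males by -0.37 ± 0.48 in Amh, 0.24 ± 0.46 in Inha, 0.15 ± 0.47 in Gja1 and 0.35 ± 0.46 in Prss35. VZ males differed from oil males by 0.53 ± 0.48 in Amh, 0.93 ± 0.46 in Inha, 0.90 ± 0.47 in Gja1, 0.77 ± 0.46 in Prss35 and 0.41 ± 0.17 in Nr0b1. No member was past the threshold after either agent, where limma called 0.00562% of all probe sets each. All 3 VZ arrays exceeded all oil arrays in 2 of the 10 members, Gja1 and Clu, and all 3 DEHP arrays did in 1, Sox9. The share of all probe sets with such separation was not computed, so these separations, here and elsewhere, are a description only. VZ male 1 was the highest of its group in Amh, Inha, Gja1, Prss35 and Dhh. Of the other Sertoli genes 0 of 22 were called after DEHP or after VZ (lowest adjusted p 0.31 and 0.122), with 1 of 22 at an unadjusted p under 0.05 in each, against 14.4% and 18.3% of all probe sets. The 3 comparisons share the oil males.

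In G1R females no agent was followed by a member past the threshold, and 0% of all probe sets were called after BPA, DEHP or VZ. The differences from oil females over all members and agents ran between -0.19 and 0.61, with the largest, 0.61 ± 0.47, in Gja1 after VZ. Of the other Sertoli genes 0 of 22 were called in each, with 0, 2 and 3 at an unadjusted p under 0.05 after BPA, DEHP and VZ, against 4.56%, 6.28% and 5.96% of all probe sets.

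In the unexposed next generation, DEHP line males minus oil line males differed by 0.68 ± 0.48 in Amh, 0.60 ± 0.46 in Inha and -0.27 ± 0.20 in Sox9, and VZ line males by 0.80 ± 0.48, 0.72 ± 0.46 and 0.20 ± 0.20. All 3 DEHP line arrays exceeded the oil line arrays in Amh, and all 3 VZ line arrays lay below them in Cldn11. That is 1 of 10 members in each line, with no share of all probe sets computed. No member and 0 of 22 other Sertoli genes were past the threshold in either line, with 0% of all probe sets called. At an unadjusted p under 0.05 were 1 and 0 of 22 in the DEHP and VZ lines, against 6.91% and 5.41% of all probe sets. A term for the agent's difference between generations called 0 probe sets for DEHP and for VZ.

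G2R oil males were compared with G1R oil males, which also differ in the direction of the cross and in array run, so that generation, cross and run cannot be told apart. Defb36 was lower in G2R by 0.46 on the log2 scale (SE 0.11) and was past the threshold, but not with only the compared arrays in the model, nor without G2R oil male 1, where the difference was -0.38. Cldn11 differed by -0.26 ± 0.11. The 3 G2R arrays lay below the 3 G1R arrays in 2 of 10 members, Cldn11 and Defb36, with no share of all probe sets computed. Amh differed by -0.38 ± 0.48, Inha by -0.46 ± 0.46, Gja1 by 0.07 ± 0.47 and Prss35 by 0.17 ± 0.46. In all, 1 of 10 members was past the threshold, in the lower direction, beside 5.3% of probe sets lower and 5% higher. Other Sertoli genes had 0 of 22 called (lowest adjusted p 0.0566, limma) and 3 at an unadjusted p under 0.05, all lower, against 26.9% of all probe sets.

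Ranked by group mean, G1R BPA males came first for 9 of the members and G1R BPA females for Nr0b1. For Inha, Prss35 and Nr0b1 no step between neighbouring group means exceeded the larger of their SDs, and for Amh, Gja1, Sox9 and Dhh 1 step did. In Amh it lay between G2R oil males at 6.94 and G1R oil females at 6.45. Cldn11 had 4 such steps and Defb36 and Clu 3 each.

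Signals of other somatic cells moved on the same arrays. On BPA males 1, 2 and 3 the mean log2 signal over 5 fetal Leydig probe sets was 8.03, 8.52 and 6.83, against 7.20, 6.82 and 7.19 in oil males, and over 13 peritubular and interstitial probe sets it was 8.27, 8.93 and 7.69, against 7.76, 7.57 and 7.93. Above every oil male were 4, 4 and 1 of the 5 Leydig probe sets, 10, 13 and 3 of the 13 peritubular and interstitial ones, and 19, 18 and 3 of the 22 other Sertoli genes. As a share of all probe sets 23.8%, 21.9% and 20.9% lay above every oil male on the same arrays. Germ cell probe sets averaged 9.49, 9.41 and 9.53, against 9.54, 9.58 and 9.44 in oil males, and endothelial probe sets 8.0, 8.14 and 8.02, against 8.03, 8.0 and 7.95. Cyp17a1, a steroid synthesis enzyme of fetal Leydig cells, averaged 10.24 ± 2.05 in BPA males and 8.94 ± 0.62 in oil males (SD, n = 3 each). The part of such cells in the Sertoli signals was not tested.

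The lists did not always move together. The array with the highest Leydig mean was DEHP line male 2 in G2R, at 8.70, yet its Sertoli members averaged 7.98, near the other arrays of its group at 7.65 and 7.99. The G1R VZ male with the highest Sertoli members, male 1 at 8.58, had a Leydig mean of 6.77, the lowest of its group. BPA male 1 exceeded BPA male 2 in the Sertoli members, 9.35 against 9.0, while BPA male 2 exceeded it in the Leydig and the peritubular and interstitial lists.

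**Figure D4:**
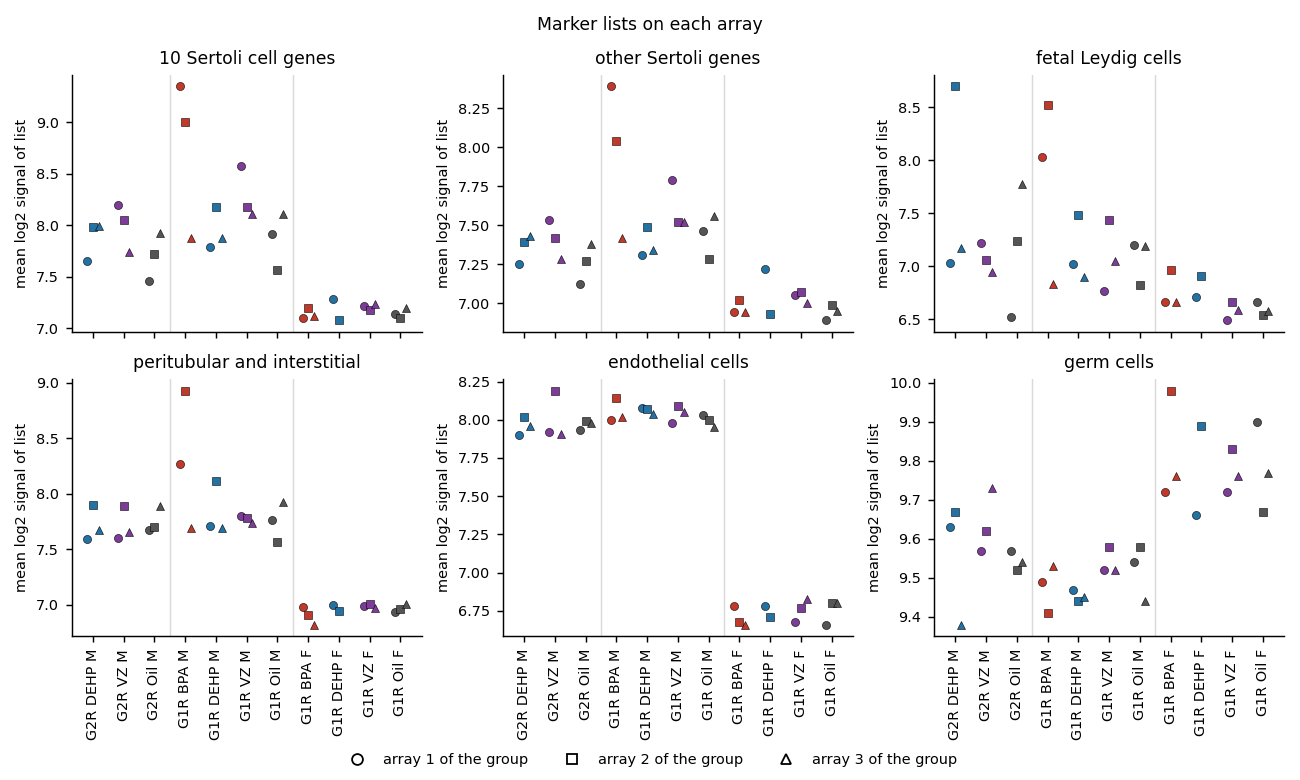
Mean log2 signal over the probe sets of 6 marker lists (vertical axis) on each array, by group (horizontal axis), with symbols for the array number. BPA males 1 and 2 stand above the other male arrays in both Sertoli lists, at 9.35 and 9.0 for the members, and in the peritubular and interstitial list, while the endothelial and germ cell lists keep them within the other male arrays.

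Between the sexes the other lists shifted too. In oil males against oil females all 10 endothelial probe sets were called higher, and so were 9 of 13 peritubular and interstitial, 5 of 10 granulosa, 3 of 7 macrophage and blood, and 2 of 5 Leydig probe sets, beside 25.6% of all probe sets. Called lower were 1 of 13 peritubular and interstitial and 1 of 5 Leydig probe sets, beside 28.7% of all probe sets. The Leydig one was Hsd3b6, at -1.46 ± 0.20 (adjusted p = 4.96e-07, limma). The 2 Leydig genes called higher were Cyp17a1, at 2.31 ± 0.76 (0.0124), and Cyp11a1, at 1.84 ± 0.42 (0.000508). Of the granulosa list Bmp2, a secreted signal, was higher in oil males by 1.52 ± 0.14 (adjusted p = 6.71e-10, limma), Fst, the activin antagonist follistatin, by 1.30 ± 0.10 (4.78e-11) and Rspo1, an ovarian WNT activator, by 0.89 ± 0.14 (4.09e-06), while Foxl2, which defines granulosa cells, differed by -0.06 ± 0.11 (0.696). Pecam1, an adhesion molecule of endothelial cells, averaged 8.38 ± 0.11 in oil males and 6.40 ± 0.16 in oil females, a difference of 1.98 ± 0.09. The part of other cells in the sex differences of the Sertoli genes was not tested.

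Receptors and partners of the members gave a further view. Of 21 such probe sets 11 were higher and 6 lower in oil males than in oil females, beside 25.6% and 28.7% of all probe sets. Bmpr1a, a type I receptor through which anti-Müllerian hormone can signal, averaged 9.66 ± 0.11 in oil males and 10.96 ± 0.04 in oil females (SD, n = 3 each), lower in males by 1.30 on the log2 scale (adjusted p = 2.55e-12, limma). Of the genes that act in hedgehog signalling, some were higher and others lower. Gli3, a transcriptional mediator, was higher by 1.25 ± 0.12 (adjusted p = 9.47e-10), Boc, a co-receptor, by 1.01 ± 0.13 (1.51e-07) and Hhip, an inhibitor that hedgehog signalling induces, by 0.95 ± 0.17 (3.66e-05), while Smo, the signal transducer, differed by -0.71 ± 0.13 (5e-05) and Cdon, a co-receptor, by -0.39 ± 0.13 (0.0138). In G2R against G1R oil males Gli1 was lower by 0.36 on the log2 scale (0.0383) and Bmpr1a higher by 0.30 ± 0.09 (0.0339), 1 call each way of 21. No exposure called a partner.

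The single-gene probe sets that varied most like the members were sought over the 21 male arrays. The measure was the Pearson correlation with the mean deviation of the 10 members. Deviations were not scaled, so this mean mostly follows Amh, Inha, Gja1 and Prss35 (pooled SD 0.73 to 0.77). Cldn11 (0.11) and Defb36 (0.13) hardly enter it. Of 21779 probe sets the highest were Defb19 at r = 0.993, Gm2a at 0.978, Gstm1 at 0.976, Ccl17 at 0.974 and Hsd17b3 at 0.961, then Ccnd2, Akr1cl, Atp1b2, Me1 and Aldh1a1 at 0.955 to 0.960. The median over all probe sets was -0.082 and the 95th percentile 0.487. Without the 3 BPA arrays Defb19 was still first at 0.981, and 8 of the 10 genes were shared. Defb19 is a beta-defensin, as is Defb36, whose r with the other members was 0.06. These are descriptions of arrays, with no test.

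Hsd17b3, the enzyme that makes testosterone from androstenedione and that fetal Sertoli cells of the mouse express, was at 10.22, 9.33 and 7.47 in BPA males, 7.21, 7.95 and 7.95 in DEHP males and 9.33, 8.46 and 8.75 in VZ males, against 7.76, 7.15 and 8.07 in oil males. The VZ arrays all lay above the oil arrays, by 1.19 ± 0.43 on average, and the BPA arrays differed from the oil arrays by 1.35 ± 0.43. Neither difference was past the threshold. Female arrays were between 5.74 and 6.03, below the dim boundary.

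Of the 22 other Sertoli genes 18 had r above the 95th percentile, with a median of 0.86, and Gata4, a transcription factor of the somatic gonad, reached 0.955. Krt18 and Trf had -0.285 and -0.410. Both were higher in males than in females in every treatment, and Krt18 was at 10.57 ± 0.23 in BPA males and 10.39 ± 0.05 in oil males, while Trf was at 8.45 ± 0.05 in BPA males and 8.49 ± 0.14 in oil males (SD, n = 3 each). Peritubular and interstitial genes had a median r of 0.64 with 10 of 13 above the percentile, and Leydig genes 0.58 with 3 of 5. Within the Leydig list Hsd3b6 stood apart at -0.214, while the others had 0.412 to 0.723. Endothelial, granulosa, blood and germ cell genes had medians between -0.20 and -0.02 with 0 above the percentile.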

How the data were processed

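RNA from sorted EGFP+ germ cells of 11 groups was measured on 32 Affymetrix Mouse Gene 1.0 ST arrays. The authors deposited log2 values after RMA in Partek, whose versions are not given in the sources used here. Array medians were 7.29 to 7.50 and correlations between arrays 0.890 to 0.993. Of 35556 probe sets, 21789 name a single gene in the platform annotation, 1621 several and 12146 none. Only the first kind was named. The number of arrays, not a count of molecules, limits the precision.

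In limma (3.58.1, run under R 4.3.3) each group's mean was fitted over all arrays and probe sets. Variances were moderated, and tests were two-sided with Benjamini-Hochberg adjusted p-values at 0.05. The methods' unmoderated contrast was an alternative. The model was tried on simulated arrays with independent noise of the same spread in every group. That setting lacks the wider spread of the BPA males, so it cannot vouch for the model there. The members and lists were chosen with earlier results of these data known, so members carry no p-value. Named genes were the members, Hsd17b3, the germ cell genes Ddx4, Dazl and Pou5f1, and the 10 most alike genes. From the other Sertoli genes and the other lists, genes were named after their values were seen. These are mostly called genes with large differences, but not always the largest. Alternatives were a model of the compared arrays only, a filter at 6.89, cyclic loess, array weights, a replicate block and each array left out.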

Additional observations from a re-analysis of the deposited data

How the results depend on the processing

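Across the alternatives 424 values for counts and likeness stayed within 1.5 times the main value and 31 did not. With only the arrays compared in the model, 1 other Sertoli gene was lower in oil males than in oil females and 1 in DEHP males than in DEHP females (2 each in the full model), 7 members were higher in oil males (4), 1 other Sertoli gene was lower in G2R than in G1R oil males (0) and 0 members were (1). The filter on dim probe sets and cyclic loess each gave 1 other Sertoli gene lower in oil males (2) and 1 lower in G2R (0), and cyclic loess 1 member lower in BPA males than in BPA females (0). Array weights gave 1 other Sertoli gene called in VZ males against oil males (0) and 1 lower in G2R (0). With BPA males 1 and 2 both left out, chosen after seeing the data and leaving 1 array that is assumed to vary like the other groups, 6 other Sertoli genes (20) and 4 members (9) were higher in BPA males than in BPA females. With each array left out in turn, other Sertoli genes lower in males numbered 1 to 2 in each of oil, DEHP and VZ, those called in BPA males against oil males 0 to 14 and members 0 to 7, with the highest counts without BPA male 3. Members higher in VZ males than in VZ females numbered 5 to 9 and lower 0 to 1, and members lower in G2R 0 to 1, with 0 without G2R oil male 1. Of the 10 most alike genes 7 to 10 were shared with each array left out, 8 without the BPA males, also chosen after seeing the data, and 3 with Amh alone. The cause of these changes was not tested. Except where BPA male arrays were left out, no share of all probe sets was computed for these alternatives. The member counts there have no such share beside them. Members' signs changed in 0 of 476 alternative values between sexes, 50 of 952 between exposed and oil groups and 9 of 119 between generations. Same-numbered arrays had deviations correlated between -0.35 and 0.13, so the numbers did not pair them. With the replicate block other Sertoli genes called higher in males than in females stayed at 9 for oil, 20 for BPA, 6 for DEHP and 10 for VZ, and 0 were called after exposure.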
